A study of Homo sapiens with 6 samples.

Results

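The genes described here encode the lipid kinases and the phosphatase that act around phosphatidylinositol 4-phosphate (PI4P) next to the drug target PI4KA. They are the other phosphatidylinositol 4-kinases (PI4KB, PI4K2A, PI4K2B), the PIP5K1 family (PIP5K1A, PIP5K1B, PIP5K1C), the PIP4K2 family (PIP4K2A, PIP4K2B, PIP4K2C) and the PI4P phosphatase SACM1L. They were chosen by symbol, as genes of this step of the pathway, and all 10 had exactly 1 row among the 63140 genes of the deposited table. The cells were HEK293, an established human line from embryonic kidney, grown to confluence. In 3 libraries, labelled as biological replicates, the cells had received 100 nM GSK-A1, an inhibitor of the PI4KA protein, for 24 h, and in 3 control libraries the solvent dimethyl sulfoxide (DMSO). The labels give the same treatment protocol, with its 24 h, the same cell line and the same sequencing lanes for all 6 libraries. The compound acts on the PI4KA enzyme, so the measurements show what followed in mRNA levels and not enzyme activity or lipid levels.

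PI4P is made from phosphatidylinositol by 4 kinases that work at different membranes. PI4KA makes it at the plasma membrane, PI4KB at the Golgi, and PI4K2A and PI4K2B at the trans-Golgi network, endosomes and other internal membranes. The PIP5K1 kinases add a phosphate to PI4P and so make PI(4,5)P2, the plasma membrane lipid that phospholipase C cleaves. The PIP4K2 kinases reach the same product from PI5P, a scarce isomer. SACM1L, the product of the yeast SAC1 homolog, removes the phosphate from PI4P in the endoplasmic reticulum and Golgi.

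Libraries held 33040178 to 47777233 counts. Of 16754 genes with enough counts to test, 3835 were called, that is, had an adjusted p under 0.05 by edgeR's quasi-likelihood test, with 2007 higher and 1828 lower after GSK-A1. Upper-quartile library factors moved this split to 1339 higher and 2688 lower. GSK-A1 replicate 2 stood apart from the other GSK-A1 libraries, with Pearson correlations of log2 CPM across genes of 0.995 and 0.994 to them, against 0.997 between GSK-A1 replicates 1 and 3. Of the HEK293 markers, NEFL, VIM, LHX1 and PAX2 were present, PAX2 at 1.93 to 2.78 CPM, NEFM had at most 13 counts, and INA had at most 1. Summed over the 6 genes of the list, the HEK293 markers stood at 1782 to 1853 CPM in DMSO and at 1912 to 2095 CPM in GSK-A1 libraries, most of it VIM and NEFL. The list went both ways, since VIM rose (log2 fold change 0.17, edgeR adjusted p = 0.00423) while PAX2 fell from 2.71 to 2.00 CPM (-0.43, edgeR adjusted p = 0.0177), and the part of these genes in the results below was not tested. Of 6 markers of blood, liver, endothelium and fibroblasts, COL1A2 was at 0 in all libraries, PTPRC, CD3E, ALB and PECAM1 had at most 8 counts, and COL1A1 made up most of the sum, which was 6.75 to 7.42 CPM in DMSO and 4.95 to 6.97 CPM in GSK-A1 libraries.

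PI4KA itself, which is no member of the set, had 187, 179 and 188 CPM (counts relative to library size, scaled by TMM factors) in the DMSO libraries and 182, 171 and 184 CPM in the GSK-A1 libraries, in order of replicate 1 to 3 here and in all that follows. The groups overlapped, and the log2 fold change was -0.04 with a standard error of 0.04 (edgeR adjusted p = 0.456). It was -0.0068 without GSK-A1 replicate 2, -0.0069 with the GC trend of each library removed and -0.084 with upper-quartile factors. No alternative called it, the edgeR adjusted p lying between 0.136 and 0.897.

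All 10 members passed the count filter, and 2 of them were called, PIP5K1A higher and PIP5K1C lower after GSK-A1. That is 20% of the members, against 22.9% of all tested genes called in either direction. For each direction alone, 12.0% of all tested genes were called higher and 10.9% lower, against 1 member each. The share of members called was thus near that of the whole table. The median log2 fold change was 0.015 over the members and -0.011 over all tested genes, and the median size was 0.075 against 0.12. In 3 members all GSK-A1 libraries lay on 1 side of all DMSO libraries (PIP5K1A, PIP5K1C and PI4K2A), which is 30% of them, against 40.5% of tested genes. The 95% interval of the log2 fold change lay inside ±0.3 for all 10 members, inside ±0.25 for 8 and inside ±0.2 for 7. Among the members that were not called, the lowest bound was -0.23, for PIP5K1B, and the highest was 0.29, for PI4K2B.

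**Figure D1:**
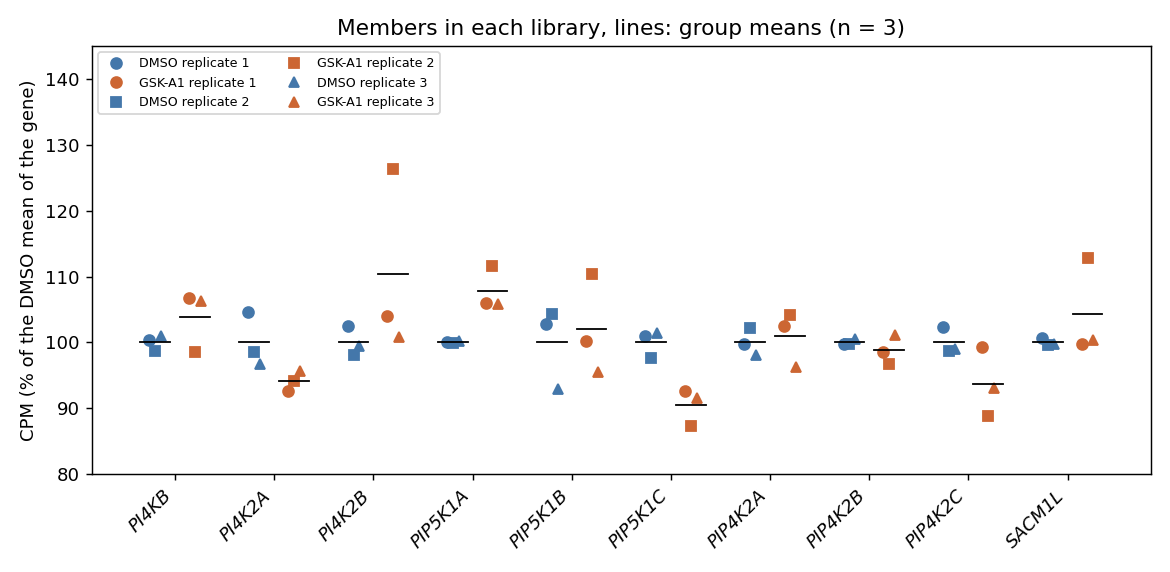
Each point is 1 library, given as CPM in percent of the gene's DMSO mean, for the 10 members, with black lines at the group means (n = 3 per group). The PIP5K1A libraries with GSK-A1 all sat above the DMSO libraries and those of PIP5K1C all below, while for PI4K2B and SACM1L only GSK-A1 replicate 2, at 126% and 113%, stood away from the rest.

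The PIP5K1 kinases, which use PI4P as their substrate, held both called members. PIP5K1A (ENSG00000143398; GRCh38 chr1:151197949-151249536, plus strand) is the most abundant of them in these cells. It had 148.3, 148.0 and 148.5 CPM in the DMSO libraries and 157, 166 and 157 CPM in the GSK-A1 libraries. All GSK-A1 libraries were higher than all DMSO libraries, with replicate 2 the highest. The rise was 0.11 ± 0.04 on the log2 scale (SE; edgeR adjusted p = 0.0430), or 7.77% with a 95% interval of 2.14% to 13.7%.

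PIP5K1A agreed more closely among DMSO libraries than the sampling of reads gives on average. Its coefficient of variation there was 0.157%, whereas counting error alone at its mean count is 1.27%. The test does not use this spread by itself, since edgeR draws each gene's dispersion towards that of genes of like abundance. The call was lost with upper-quartile factors (log2 fold change 0.067, edgeR adjusted p = 0.179), with library totals as the only scaling (0.10, 0.0696), and when DMSO replicate 1, 2 or 3 or GSK-A1 replicate 1 was left out, with adjusted p of 0.122, 0.135, 0.132 and 0.0675. The direction was the same in every alternative, where the adjusted p ranged from 0.0154 to 0.179. PIPSL, a retrotransposed fusion copy, shares 9.31% of the 50-base words of the PIP5K1A transcript and had 0 counts in every library, and how reads that match both were counted is not given in the sources used here.

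PIP5K1C (ENSG00000186111; chr19:3630183-3700479, minus strand), which encodes the kinase that binds talin at focal adhesions and acts in endocytosis at synapses, fell. It had 43.9, 42.5 and 44.1 CPM in the DMSO libraries and 40.3, 38.0 and 39.8 CPM in the GSK-A1 libraries. No GSK-A1 library reached the lowest DMSO library. The log2 fold change was -0.14 with a standard error of 0.05 (edgeR adjusted p = 0.0330), a change of -9.38% with a 95% interval of -15.2% to -3.13%. Its longest transcript had the highest GC content of the members, 63.6%. With each library's trend of expression on GC content entered as an offset, the log2 fold change was -0.067 (edgeR adjusted p = 0.215). The call was also lost under DESeq2 (-0.14, DESeq2 adjusted p = 0.0705), with no count filter (-0.13, edgeR adjusted p = 0.0736), and on leaving out DMSO replicates 1, 2 or 3 or GSK-A1 replicates 1 or 3 (edgeR adjusted p of 0.114, 0.0668, 0.131, 0.0683 and 0.0557). Over the alternatives the adjusted p ranged from 0.00871 to 0.230, with the same direction throughout.

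PIP5K1B (ENSG00000107242; chr9:68705414-69009176, plus strand), the third PIP5K1 gene, had the lowest level of the set, with 85 to 136 counts per library. It had 2.84, 2.88 and 2.57 CPM in the DMSO libraries and 2.77, 3.05 and 2.64 CPM in the GSK-A1 libraries. The groups overlapped, the log2 fold change was 0.016 with a standard error of 0.12 (edgeR adjusted p = 0.939), and its 95% interval, -14.9% to 20.2%, was the widest of the set. The sign turned under upper-quartile factors (-0.024) and with the GC trend removed (-0.026).

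Within the family, the balance of PIP5K1A to PIP5K1C was higher in every GSK-A1 library than in every DMSO library. The ratio of PIP5K1A to PIP5K1C counts was 3.37, 3.48 and 3.37 in DMSO replicates 1 to 3 and 3.90, 4.36 and 3.94 in GSK-A1 replicates 1 to 3. The ratio does not depend on library scaling. Its separation follows from the values of the 2 called genes given above, as does that of their shares below, and adds no support of its own. Per length, PIP5K1A made up 80.7% ± 0.2 of the family's transcripts in DMSO and 83.1% ± 0.7 in GSK-A1 libraries (SD, n = 3), a shift of 2.40 percentage points. PIP5K1C went from 17.6% ± 0.3 to 15.2% ± 0.8, and PIP5K1B held 1.70% ± 0.11 and 1.65% ± 0.09. The exact two-sided permutation p was 0.1, the smallest that 3 against 3 libraries allow, for the shares of PIP5K1A and PIP5K1C and 0.7 for PIP5K1B, or 0.3, 0.3 and 1 after Benjamini-Hochberg adjustment over the 9 shares of the 3 families. The family's summed level was 195 ± 1 CPM with DMSO and 202 ± 4 CPM with GSK-A1, higher by 3.85% (log2 ratio 0.054; exact permutation p = 0.1), but with upper-quartile factors the log2 ratio was 0.013 (exact permutation p = 0.4). Most of the sum was PIP5K1A, at 148 CPM with DMSO. The separation of the sum thus largely restates that of PIP5K1A and adds no support of its own.

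The promoters of the 2 called members are shown because they moved in opposite directions. Each run gives the 250 bases before the RefSeq start site, 5′ to 3′ on the gene's strand, from GRCh38.p14, with capitals marking matches on either strand to CACGTG (the E-box), GGGCGG (the box of SP factors), CCAAT (the box of NF-Y) and GCGTGGG (a core of EGR factors). The PIP5K1A window lies at chr1:151198302-151198551 on the plus strand and that of PIP5K1C at chr19:3700469-3700718 on the minus strand. The RefSeq start of PIP5K1A lies downstream of the GENCODE start at 151197949, so its window falls wholly inside the gene span given above. The PIP5K1C window overlaps the edge of its span, at 3700479, by a few bases.
PIP5K1A: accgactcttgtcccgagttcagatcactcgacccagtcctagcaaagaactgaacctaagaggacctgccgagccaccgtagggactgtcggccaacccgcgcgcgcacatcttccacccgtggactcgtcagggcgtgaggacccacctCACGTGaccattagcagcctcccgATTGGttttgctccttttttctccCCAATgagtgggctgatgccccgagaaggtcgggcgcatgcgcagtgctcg
PIP5K1C: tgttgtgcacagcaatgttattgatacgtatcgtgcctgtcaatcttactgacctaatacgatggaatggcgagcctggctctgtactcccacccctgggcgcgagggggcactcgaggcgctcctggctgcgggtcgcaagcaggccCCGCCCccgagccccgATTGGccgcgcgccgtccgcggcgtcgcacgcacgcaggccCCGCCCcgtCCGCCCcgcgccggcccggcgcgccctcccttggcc
The PIP5K1A window held 1 E-box, 2 CCAAT boxes and 0 GGGCGG matches, and the PIP5K1C window held 3 GGGCGG matches, 1 CCAAT box and 0 E-boxes. The matches did not overlap one another, and neither window held GCGTGGG. Of 35116 windows of the same length in the RefSeq table, 6.34% held CACGTG, 42.6% GGGCGG, 32.0% CCAAT and 6.19% GCGTGGG. The GC content of the windows was 60.4% for PIP5K1A and 70.4% for PIP5K1C. Across the 12 windows of the 9 members with an entry, which leaves out PI4K2A, 8 held GGGCGG, 6 held CCAAT, 2 held CACGTG and 1 held GCGTGGG.

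The 3 PI4-kinases beside PI4KA were not called. PI4KB (ENSG00000143393; chr1:151291797-151327715, minus strand), the Golgi enzyme that many RNA viruses recruit, had 116, 114 and 117 CPM in the DMSO libraries and 124, 114 and 123 CPM in the GSK-A1 libraries. GSK-A1 replicates 1 and 3 were above all DMSO libraries, while replicate 2, at 114.2 CPM, was only just below the lowest of them, at 114.3 CPM. The log2 fold change was 0.055 with a standard error of 0.040 (edgeR adjusted p = 0.353), with an interval of -2.06% to 10.2%. PI4KB was called higher when GSK-A1 replicate 2 was left out (0.095, edgeR adjusted p = 0.0154) and with the GC trend removed (0.090, 0.0316). Over the alternatives its adjusted p ranged from 0.0154 to 0.833, the highest under upper-quartile factors (0.014). ZNF687, which runs the other way, shares 7.04% of the exonic bases of PI4KB, and whether the counting used strand is not given in the sources used here.

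PI4K2A (ENSG00000155252; chr10:97640686-97676434, plus strand), the palmitoylated enzyme of endosomes and the trans-Golgi network, had 34.4, 32.4 and 31.8 CPM in the DMSO libraries. In the GSK-A1 libraries it had 30.4, 30.9 and 31.4 CPM. The groups did not overlap, but the nearest libraries differed little, and the log2 fold change of -0.090 with a standard error of 0.049 (edgeR adjusted p = 0.202) did not pass the threshold. Leaving out DMSO replicate 1 gave -0.055 (edgeR adjusted p = 0.541), and over the alternatives the adjusted p ranged from 0.0602 to 0.541. The interval of the change ran from -12.6% to 0.998%.

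PI4K2B (ENSG00000038210; chr4:25233975-25279092, plus strand), its largely cytosolic relative, had the largest positive log2 fold change of the set and was still not called. It had 42.3, 40.5 and 41.1 CPM in the DMSO libraries and 43.0, 52.2 and 41.6 CPM in the GSK-A1 libraries. Only GSK-A1 replicate 2 lay clearly above the DMSO libraries, replicate 1 was slightly above them, and replicate 3 lay among them. The log2 fold change was 0.14 with a standard error of 0.07 (edgeR adjusted p = 0.179), with an interval of -1.01% to 22.6%. Leaving out GSK-A1 replicate 2 gave 0.040 (edgeR adjusted p = 0.517), and leaving out replicate 3 gave 0.20 (0.0371), the 2 ends of its range over the alternatives. Read-through gene models on the same strand cover part of both type II genes, 36.6% of the exonic length of PI4K2B and 28.0% of that of PI4K2A. The model over PI4K2A had 1 count in all 6 libraries together, and the one over PI4K2B was not among the genes of the deposited table.

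Summed, these 3 kinases had 193, 187 and 190 CPM in the DMSO libraries and 197, 197 and 196 CPM in the GSK-A1 libraries. All GSK-A1 libraries were higher, by 3.58% in the mean (log2 ratio 0.051; exact two-sided permutation p = 0.1, the smallest possible). With upper-quartile factors the log2 ratio was 0.0098 (exact permutation p = 0.6). Per length, PI4KB held 59.9% ± 0.7 of the sum in DMSO and 59.9% ± 3.0 in GSK-A1 libraries (SD, n = 3). PI4K2A went from 16.1% ± 0.5 to 14.6% ± 0.3 with no overlap of the groups, and PI4K2B from 24.0% ± 0.2 to 25.5% ± 3.1. The exact permutation p was 1, 0.1 and 0.8, or 1, 0.3 and 1 adjusted over the 9 shares. The separation of the PI4K2A share goes with that of its CPM values given above and adds no support of its own. With PI4KA counted in, PI4KA made up 36.0% ± 0.4 of the transcripts of the 4 PI4-kinases with DMSO and 34.4% ± 1.1 with GSK-A1, beside 38.3% ± 0.4 and 39.2% ± 1.3 for PI4KB.

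**Figure D2:**
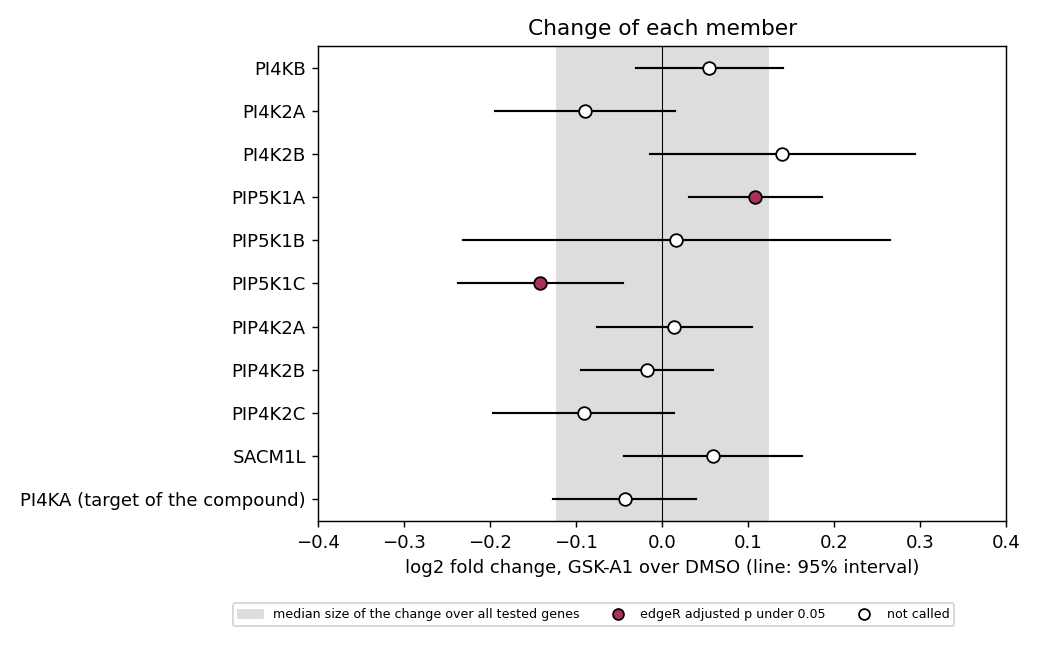
Points are log2 fold changes of GSK-A1 over DMSO from edgeR with their 95% intervals, filled where the adjusted p was under 0.05, and the grey band marks the median size of the change over all tested genes (0.12 in either direction), with PI4KA in the bottom row for reference. PIP5K1A at 0.11 and PIP5K1C at -0.14 are the filled points, and PIP5K1B and PI4K2B have the widest intervals.

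None of the 3 PIP4K2 kinases was called. PIP4K2B (ENSG00000276293; chr17:38765689-38800126, minus strand), of which a nuclear pool is known, differed little between the groups. It had 137.3, 137.1 and 138.2 CPM in the DMSO libraries and 135, 133 and 139 CPM in the GSK-A1 libraries. The GSK-A1 libraries lay on both sides of the DMSO libraries, and the log2 fold change was -0.018 with a standard error of 0.036 (edgeR adjusted p = 0.765), with an interval of -6.31% to 4.14%. Its sign turned with the GC trend removed (0.0073).

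PIP4K2A (ENSG00000150867; chr10:22534849-22714555, minus strand), the most active enzyme of the family, had 72.3, 74.1 and 71.2 CPM in the DMSO libraries. In the GSK-A1 libraries it had 74.3, 75.5 and 69.8 CPM, a wider range that held the whole DMSO range. The log2 fold change was 0.014 with a standard error of 0.043 (edgeR adjusted p = 0.847), with an interval of -5.13% to 7.47%, and turned to -0.027 under upper-quartile factors and to -0.0030 with the GC trend removed.

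PIP4K2C (ENSG00000166908; chr12:57591174-57603418, plus strand), the isoform with very low catalytic activity, had 40.9, 39.5 and 39.6 CPM in the DMSO libraries and 39.7, 35.5 and 37.2 CPM in the GSK-A1 libraries. GSK-A1 replicates 2 and 3 lay below the DMSO libraries and replicate 1 lay among them. The log2 fold change was -0.091 with a standard error of 0.050 (edgeR adjusted p = 0.201), with an interval of -12.8% to 0.983%, and without GSK-A1 replicate 2 it was -0.050. The family's summed level was 250.03 ± 0.98 CPM with DMSO and 247 ± 3 CPM with GSK-A1, a difference of -1.39% (log2 ratio -0.020; exact two-sided permutation p = 0.2). With upper-quartile factors the log2 ratio was -0.061 and with library totals -0.028, and there the groups did not overlap (exact permutation p = 0.1 for both). The shares of PIP4K2A, PIP4K2B and PIP4K2C per length were 33.6%, 42.3% and 24.1% with DMSO and 34.5%, 42.5% and 23.0% with GSK-A1, with overlapping groups in each (exact permutation p = 0.5, 1 and 0.2, or 0.9, 1 and 0.45 adjusted over the 9 shares).

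SACM1L (ENSG00000211456; chr3:45689056-45745424, plus strand), the phosphatase that takes PI4P back to phosphatidylinositol, was not called. It had 58.9, 58.30 and 58.3 CPM in the DMSO libraries and 58.4, 66.0 and 58.7 CPM in the GSK-A1 libraries. GSK-A1 replicates 1 and 3 fell inside the DMSO range, and only replicate 2 was higher. The log2 fold change was 0.059 with a standard error of 0.049 (edgeR adjusted p = 0.414), with an interval of -3.01% to 11.9%, and without GSK-A1 replicate 2 it was 0.0047 (edgeR adjusted p = 0.944).

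GSK-A1 replicate 2 was the GSK-A1 library farthest from the DMSO mean in 8 of the 10 members, all but PI4KB and PI4K2A. The spread between libraries was larger with GSK-A1 than with DMSO in 9 members, with coefficients of variation of 1.62% to 12.6% against 0.157% to 6.18%. Without GSK-A1 replicate 2, 3 members were called (PIP5K1A, PIP5K1C and PI4KB), and 28.1% of all genes tested were called. Leaving out DMSO replicate 1, 2 or 3 or GSK-A1 replicate 1 left 0 members called, while 12.9%, 13.2%, 12.7% and 15.9% of all genes tested were called. Without GSK-A1 replicate 3 the called members were PIP5K1A and PI4K2B, while 21.9% of all genes tested were called.

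**Figure D3:**
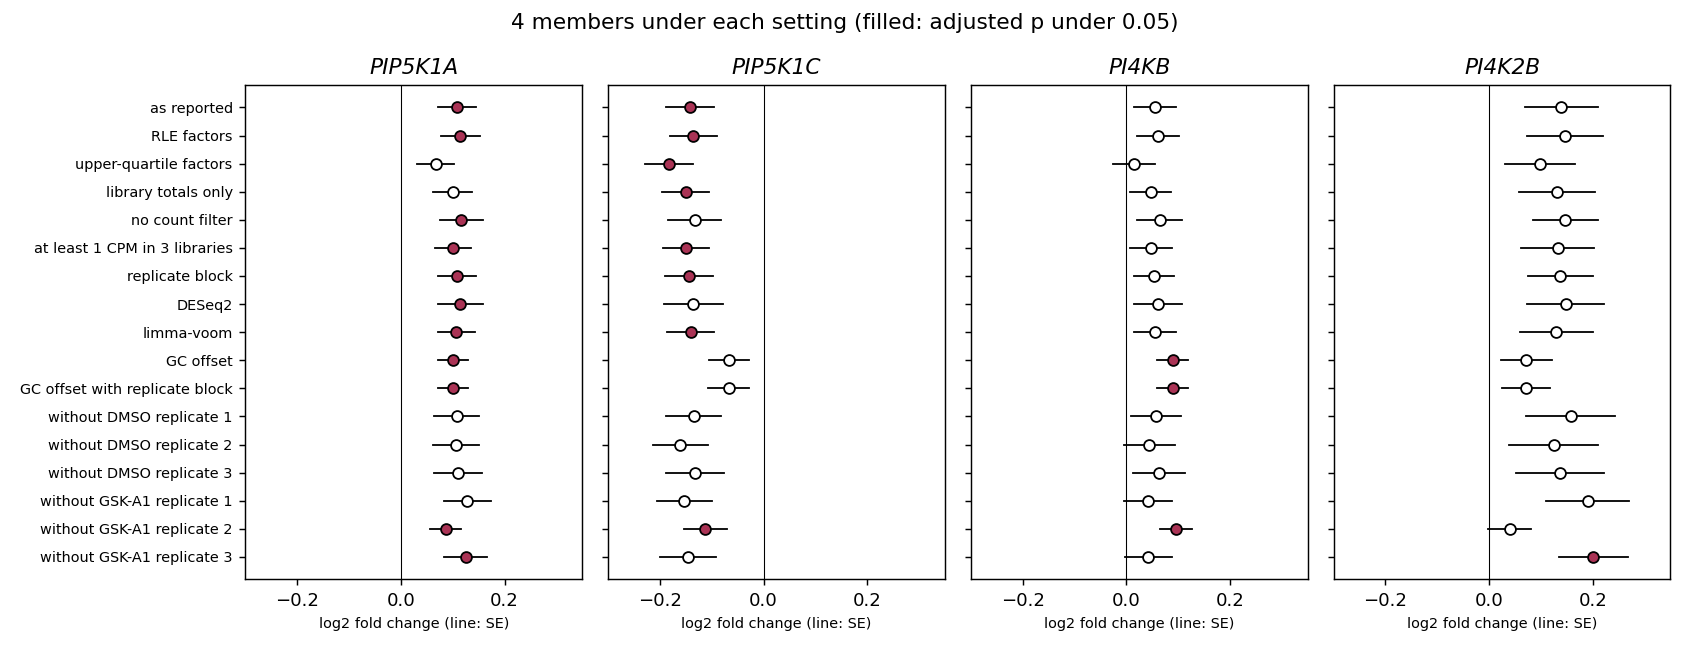
Each row is 1 processing setting or 1 library left out, and each point is the log2 fold change with its standard error for PIP5K1A, PIP5K1C, PI4KB and PI4K2B, filled where the adjusted p was under 0.05. PIP5K1A stayed right of 0 (0.067 to 0.13) and PIP5K1C left of it (-0.18 to -0.067) while their calls came and went, and PI4K2B moved most, from 0.040 without GSK-A1 replicate 2 to 0.20 without replicate 3.

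Levels of different genes were compared per length, in TPM (counts per base of the longest GENCODE transcript, scaled to the same sum in every library). In DMSO the order was PIP5K1A at 103 ± 1 TPM, PI4KB at 75.9 ± 1.4, PIP4K2B at 62.6 ± 0.5, PIP4K2A at 49.8 ± 0.8, PIP4K2C at 35.7 ± 0.9, SACM1L at 32.8 ± 0.4, PI4K2B at 30.4 ± 0.8, PIP5K1C at 22.3 ± 0.6, PI4K2A at 20.5 ± 0.9 and PIP5K1B at 2.16 ± 0.13 (SD, n = 3). No neighbours in this order overlapped between libraries. In GSK-A1 the levels were 112 ± 6 TPM for PIP5K1A, 79.3 ± 1.7 for PI4KB, 62.2 ± 0.6 for PIP4K2B, 50.6 ± 3.2 for PIP4K2A, 33.7 ± 1.5 for PIP4K2C, 34.5 ± 3.3 for SACM1L, 33.9 ± 5.2 for PI4K2B, 20.4 ± 0.3 for PIP5K1C, 19.4 ± 0.5 for PI4K2A and 2.22 ± 0.22 for PIP5K1B. There the libraries of PIP4K2C, SACM1L and PI4K2B overlapped, so the order of these 3 was not resolved. The range from PIP5K1A to PIP5K1B was 47.6-fold in DMSO. With the length of all exons joined in place of the longest transcript, PIP4K2B at 79.5 TPM stood above PI4KB at 75.3 in DMSO, PI4K2B at 41.4 above SACM1L at 28.2, and PI4K2A at 27.8 above PIP5K1C at 22.1.

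**Figure D4:**
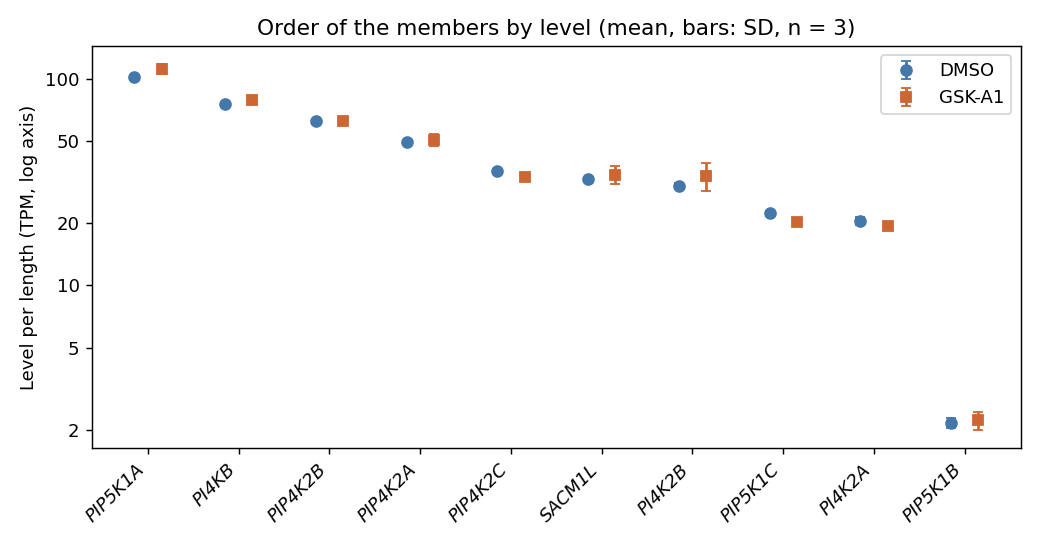
Points are mean levels per length in TPM on a log axis, with SD bars (n = 3 libraries per group), for DMSO and GSK-A1, ordered by the DMSO mean. PIP5K1A leads at 103 TPM and PIP5K1B is last at 2.16 TPM, and the middle trio of PIP4K2C, SACM1L and PI4K2B lies close together.

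Regulators and neighbouring enzymes were read from 5 lists with 44 different genes, all tested. Of these, 8 were called, 7 higher and 1 lower, which is 18.2% against the 22.9% of all tested genes, and the median log2 fold change of the 44 genes was 0.019. The split depended on the scaling: with upper-quartile factors 9 were called, 3 higher and 6 lower. That is 20.5% of the lists beside 24.0% of all genes tested, which split into 1339 higher and 2688 lower. With the GC offset 11 were called, 8 higher and 3 lower. That is 25% of the lists beside 25.5% of all genes tested, which split into 2229 higher and 2050 lower. The count was 4, 3 and 2 on leaving out DMSO replicates 1, 2 and 3 in turn, beside 12.9%, 13.2% and 12.7% of all genes tested. It was 5, 14 and 8 on leaving out GSK-A1 replicates 1, 2 and 3, beside 15.9%, 28.1% and 21.9% of all genes tested, so that the 14 calls, 31.8% of the lists, came with more calls in the whole table.

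Among 11 regulators of PI4-kinases, 3 rose, 0 fell and 8 were not called. That is 27.3% of the list, against 22.9% of all tested genes, with 12.0% of these called higher and 10.9% lower. The median log2 fold change of the list was -0.00027. NCS1, a calcium sensor that binds PI4KB, rose from 136 ± 1 to 150 ± 3 CPM (SD, n = 3; log2 fold change 0.14 ± 0.04, edgeR adjusted p = 0.0104). ACBD3, the Golgi protein that recruits PI4KB, rose from 70.5 ± 0.6 to 79.5 ± 5.8 CPM (0.17 ± 0.05, edgeR adjusted p = 0.0163), and ITCH, a ubiquitin ligase that associates with PI4K2A, from 24.5 ± 1.4 to 28.2 ± 2.1 CPM (0.19 ± 0.06, edgeR adjusted p = 0.0336). NCS1 was not called without DMSO replicate 2 or 3, ACBD3 without any 1 of the DMSO libraries or without GSK-A1 replicate 1, and ITCH without DMSO replicate 1 or 3 or with the GC offset (0.13, edgeR adjusted p = 0.0652). With upper-quartile factors the list had 1 gene higher and 3 lower, 36.4% of it against 24.0% of all genes tested. There NCS1 and ITCH were not called, and GBF1 (-0.13, edgeR adjusted p = 0.0288), PRKD1 (-0.19, 0.0225) and AP3D1 (-0.13, 0.0166) were called lower. With the GC offset ARF1 was called higher (0.085, edgeR adjusted p = 0.0404) and PRKD1 again lower (-0.15, 0.0337). Both calls held with the replicate block added to the GC offset (edgeR adjusted p = 0.0348 and 0.0403). PRKD1 was also called lower without GSK-A1 replicate 2 (-0.17, edgeR adjusted p = 0.0173). GBF1, PRKD1, AP3D1 and ARF1, and the other genes named below for a call in an alternative alone, were chosen after their values were seen.

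Of 5 partners of SACM1L at membrane contacts and in its export, 2 rose, 0 fell and 3 were not called. That is 40% of this short list, against 22.9% of all tested genes. PLEKHA3, the PI4P-binding protein FAPP1 that is known to promote SACM1L activity, rose from 22.4 ± 1.0 to 27.5 ± 1.5 CPM (SD, n = 3; log2 fold change 0.29 ± 0.06, edgeR adjusted p = 0.00187). OSBP, which trades sterol for PI4P at contact sites, rose from 72.0 ± 1.8 to 79.1 ± 2.5 CPM (0.14 ± 0.04, edgeR adjusted p = 0.0258). PLEKHA3 was called in every alternative run, while OSBP was not called with upper-quartile factors or on leaving out DMSO replicate 2 or 3 or GSK-A1 replicate 1. Without GSK-A1 replicate 2 the list had 4 calls, 3 higher and 1 lower, which is 80% of it against 28.1% of all genes tested. The added calls were VAPA, higher (0.084, edgeR adjusted p = 0.0495), and VAPB, lower (-0.098, 0.0203).

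Of 8 regulators and partners of PIP5K1 enzymes, 1 fell, 0 rose and 7 were not called (12.5% called, against 22.9% of all tested genes). The called gene was TLN2, a talin, at 11.8 ± 0.4 CPM with DMSO and 9.88 ± 0.56 CPM with GSK-A1 (SD, n = 3; log2 fold change -0.26 ± 0.07, edgeR adjusted p = 0.0132). The call was lost on leaving out DMSO replicate 2 or 3 or GSK-A1 replicate 1, and AP2M1 was also called lower with upper-quartile factors (-0.11, edgeR adjusted p = 0.0232). RAC1 was called higher without GSK-A1 replicate 2 (0.074, edgeR adjusted p = 0.0414). Of 11 phosphatases of PI(4,5)P2 and paralogs with a SAC domain, 1 rose, 0 fell and 10 were not called (9.09% called, against the same 22.9%). INPP5F, which has a SAC domain and acts on PI4P in endosomes, rose from 42.4 ± 0.8 to 48.4 ± 2.4 CPM (0.19 ± 0.05, edgeR adjusted p = 0.00815), a call lost without DMSO replicate 1. INPP5K of the same list was just short of a call (0.13, edgeR adjusted p = 0.0504). It was called higher with RLE library factors (0.14, 0.0423), no count filter (0.14, 0.0470) and the replicate block (0.13, 0.0467). The GC offset (0.18, 0.00208; with the replicate block added, 0.00207) and leaving out GSK-A1 replicate 2 (0.17, 0.00108) also gave a call. Of 10 genes that supply PI5P through PI(3,5)P2, 1 rose, 0 fell and 9 were not called (10% called, against the same 22.9%). PIKFYVE, the kinase that makes PI(3,5)P2, rose from 63.4 ± 1.2 to 70.2 ± 3.4 CPM (0.15 ± 0.04, edgeR adjusted p = 0.0244), a call lost without any 1 of the DMSO libraries and with upper-quartile factors. FIG4, the phosphatase of PI(3,5)P2 that is on both of the last lists, was not called (-0.11, edgeR adjusted p = 0.0719), but was called lower with upper-quartile factors (-0.15, 0.0153), with the GC offset (-0.13, 0.00820; with the replicate block added, 0.00992), with a filter of 1 CPM in 3 libraries (-0.12, 0.0450) and without GSK-A1 replicate 2 (-0.11, 0.0224).

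The pattern of PIP5K1C, the called member with the smallest p, was compared with 12815 other genes that had a symbol and a mean of at least 1 CPM. Over the 6 libraries, the highest Pearson correlations of log2 CPM were with MED22 (0.995; 88.9 CPM with DMSO and 76.4 with GSK-A1), PGAP3 (0.995; 11.8 and 9.43 CPM) and DNASE1L1 (0.995; 26.1 and 20.9 CPM). All of these correlations rest on the same 6 libraries and on the difference between the groups, and 350 genes had a correlation of at least 0.95.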

How the data were processed

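Total RNA of 6 HEK293 samples was sequenced from stranded libraries, per the labels' protocols. The deposited table holds raw counts per gene, 1 column per library. The submitters' processing notes list cutadapt 5.1, STAR 2.7.11b, featureCounts of Subread 2.1.1, DESeq2 1.38.0 and the build GRCh38.p13, and give no roles, so the strand setting, annotation release and filters are not given in the sources used here.

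Genes were kept by filterByExpr (smallest count 10, total 15) and tested with edgeR 4.0.16 in R 4.3.3 (TMM factors, robust quasi-likelihood F test). P-values were adjusted by Benjamini-Hochberg over all 16754 genes, and called under 0.05. Standard errors are the log2 coefficient divided by the root of F, and 95% intervals use the same error. Libraries of a group were treated as replicates per the labels (bio rep), and nothing further on separate cultures is given, so p-values rest on the spread between these libraries only. For edgeR, each gene's own spread is drawn towards that of genes of like abundance. Single values were compared by exact permutation (scipy 1.17.1). Library totals of 33040178 to 47777233 leave counting errors of 1.27% for PIP5K1A and 9.39% for PIP5K1B per library, which cover read sampling only. No library repeated another: the chi-square of counts per gene between 2 libraries was at least 1.84, above read sampling.

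Coordinates, lengths and GC content are from GENCODE 29 (GRCh38), and promoters from RefSeq. The genes named are all members, PI4KA, up to 3 called genes per list by smallest p, and the 3 genes most like the called member with the smallest p. List genes called only in an alternative are named as well. Members and lists were chosen with earlier results of these data known. The code was tested on simulated counts. Alternatives were other library factors, filters and thresholds, DESeq2 1.42.0, limma-voom (limma 3.58.1), a replicate block, a GC offset (loess, span 0.3), other lengths, and leaving out each library.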

Additional observations from a re-analysis of the deposited data

How the results depend on the processing

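The number of genes called was 1871 at an adjusted p under 0.01 and 2163 to 4890 with 1 library left out, against 3835. Members called, 2 as reported, were 0 at an adjusted p under 0.01 (11.2% of all genes tested were called), 1 with upper-quartile factors (24.0%), library totals (22.5%), no count filter (12.0%) or DESeq2 (18.3%, with no adjusted p for 2274 genes), and 0 to 3 with 1 library left out. At an adjusted p under 0.01 the log2 fold changes of PIP5K1A (0.108) and PIP5K1C (-0.142) are as reported, without a call. Their other lost calls were PIP5K1A with upper-quartile factors (0.067) and library totals (0.10), and PIP5K1C with no filter (-0.13), DESeq2 (-0.14), the GC offset (-0.0674) and the GC offset with replicate block (-0.0674). Leaving out 1 library gave 0.086 to 0.13 for PIP5K1A and -0.16 to -0.11 for PIP5K1C. PI4KB was called with the GC offset (0.0896) and with the block added (0.0893), and ranged from 0.042 to 0.095 with 1 library left out, as PI4K2B did from 0.040 to 0.20. The sign turned for PIP5K1B with upper-quartile factors (-0.024), the GC offset (-0.026) and the GC offset with block (-0.020), for PIP4K2A likewise (-0.027, -0.0030 and -0.0026), and for PIP4K2B with the GC offset (0.0073) and with block (0.0072). With 1 library left out these 3 ranged from -0.033 to 0.060, -0.0032 to 0.050 and -0.031 to 0.0011. The median member log2 fold change was -0.025 with upper-quartile factors and -0.0058 to 0.046 with 1 library left out. With 1 library left out, the shift in family share took both signs, at -0.867 to 1.71 percentage points for PI4KB, -0.248 to 2.53 for PI4K2B and -0.466 to 0.633 for PIP4K2B. The 44 list genes had 2 to 14 calls with 1 library left out. The cause of these moves was not tested.

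With exon-union lengths the levels that moved by more than their SD were, in TPM with DMSO and GSK-A1, 27.8 and 26.4 for PI4K2A, 41.4 and 46.2 for PI4K2B, 79.5 and 79.1 for PIP4K2B, 43.0 and 40.6 for PIP4K2C and 28.2 and 29.7 for SACM1L, and with DMSO alone 97.2 for PIP5K1A and 1.99 for PIP5K1B.

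The replicate block called 4127 genes and changed no member's call. The deviations of libraries with the same number had correlations of 0.011, 0.019 and 0.032, and those with different numbers -0.033 to 0.012. Each library correlated best with its own number except GSK-A1 replicate 1 (0.0109, against 0.0117 with DMSO replicate 2). The exact paired sign-flip test of the summed levels cannot go below p = 0.25. Depth limits PIP5K1B most, with 85 to 136 counts.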
